A study of Mus musculus with 10 samples.

Results

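The genes described here are the secreted factor Nodal, its antagonists Lefty1 and Lefty2, and 7 further genes of the same pathway, Tdgf1, Cfc1, Smad7, Skil, Acvr2b, Foxh1 and Pcsk6. They were found as every array probe that carries 1 of these 10 gene names in the scanner files, which gave 13 of the 39429 gene probes on the array. Tdgf1 has 3 of them, Skil 2 and each other gene 1. All 13 probes passed the filter on dim probes, in a table of 25851 tested probes, and all were well above background on every one of the 10 arrays in both dyes.

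RNA came from mouse embryonic stem (ES) cells, grown with LIF on irradiated feeder cells that were removed by preplating before extraction. The lines lacked Tet1 and Tet2 (DKO), Tet2 alone (T2KO), Tet1 alone (T1KO), or were wild type (WT). Tet1 and Tet2 are enzymes that oxidise 5-methylcytosine in DNA. The labelled lines were male DKO 51 and 61, female DKO 60 and 59, male T2KO 16, male T1KO 99 and 65, male WT 6 and 92, and female WT 7 and 94, all described as of a mixed C57/BL/6 background. Each line is a separate ES cell line, and T2KO is represented by 1 line only. Every DKO line was labelled with Cy5 and hybridised against a WT line of the same sex in Cy3, in 4 line pairs on 6 arrays. T2KO 16 (Cy5) was hybridised against T1KO 65 (Cy3) on 2 arrays, and T1KO 99 (Cy3) was on 2 arrays whose Cy5 sample the submitters left out for a false genotype. No dye was swapped, so in DKO over WT and in T2KO over T1KO dye and genotype cannot be told apart.

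Nodal is a ligand of the TGF-beta family that signals through activin receptors to SMAD2 and SMAD3. It needs a co-receptor of the EGF-CFC family, Tdgf1 (Cripto) or Cfc1 (Cryptic), and is cleaved from its precursor by proprotein convertases such as Pcsk6. Phosphorylated SMADs act with the DNA-binding factor Foxh1 and induce Nodal itself as well as Lefty1 and Lefty2, secreted antagonists that close a feedback loop, and Smad7 and Skil, which dampen the signal inside the cell. In mouse ES cells the loop is active, and in the embryo it patterns the epiblast and the left-right axis.

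The promoters of Nodal and Pcsk6 are printed because these were the 2 members with an unadjusted p under 0.05 in DKO over WT. Of all tested probes, 26.0% had such a p (limma). CpG is marked because Tet enzymes act on methylated CpG, but methylation was not measured on these arrays. The printed sequences are 300 bases each, from RefSeq on GRCm38.p6, with every CpG in capitals. Nodal lies at chr10:61417722-61418021 on the plus strand and Pcsk6 at chr7:65861886-65862185 on the plus strand.
Nodal: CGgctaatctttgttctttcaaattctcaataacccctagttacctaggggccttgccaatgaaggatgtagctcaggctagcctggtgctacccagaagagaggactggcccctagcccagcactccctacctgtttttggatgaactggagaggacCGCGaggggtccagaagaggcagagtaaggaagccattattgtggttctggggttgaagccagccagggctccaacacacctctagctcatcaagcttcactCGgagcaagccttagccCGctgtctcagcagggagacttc
Pcsk6: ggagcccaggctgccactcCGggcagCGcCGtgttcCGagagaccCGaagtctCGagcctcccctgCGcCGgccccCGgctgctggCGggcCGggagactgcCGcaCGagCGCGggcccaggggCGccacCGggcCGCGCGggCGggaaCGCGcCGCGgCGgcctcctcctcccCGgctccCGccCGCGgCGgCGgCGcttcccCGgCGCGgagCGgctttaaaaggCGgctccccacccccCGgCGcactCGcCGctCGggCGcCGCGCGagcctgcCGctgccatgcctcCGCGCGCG
The Nodal window holds 5 CpG and the Pcsk6 window 52, against a median of 7 over 32851 promoters of this length. Among those promoters, 38.0% have fewer CpG than Nodal and 99.4% have fewer than Pcsk6. Entries were also found for Tdgf1 (7 CpG), Cfc1 (2 CpG) and Acvr2b (27 CpG). The promoter of Smad7 was left out and is not reported here. The motif CAGAC, searched on both strands, occurs 0 times in the Nodal and Pcsk6 windows and once each in the windows of the other 3, and 49.6% of all promoters hold it. The motif AATNCACA, also searched on both strands, occurs in none of the 5 windows and in 3.60% of all promoters.

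Over the tested probes, the limma test at an adjusted p of 0.05 called 1028 in DKO over WT (631 higher, 397 lower) and at most 1 in each other comparison. The labels were checked on the targeted genes, whose brightest probes had log2 ratios of -2.11 for Tet1 and -2.10 for Tet2 (adjusted p = 0.00774 for Tet1 and 0.0228 for Tet2, limma). The Tet1 level was 12.91 in T2KO 16, against 11 and 10.92 in the T1KO lines, and the Tet2 level was 9.74 in T2KO 16, against 11.57 and 11.43 in the T1KO lines. By these probes both genes were low in the lines labelled as lacking them. The dimmest Tet2 probe did not pass, at 0.18 in DKO over WT (adjusted p = 0.319, limma). The ES cell markers were well above background in all groups for 10 of 10 genes. In bulk RNA, fewer cells of a kind and less RNA per cell cannot be told apart.

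In DKO over WT, 0 of the 13 member probes passed the threshold, where 3.98% of all tested probes did (2.44% higher and 1.54% lower). 2 of the 13 had an unadjusted p under 0.05, both higher in DKO lines, against 26.0% of all probes. The median log2 ratio of the 13 probes was 0.14, against 0.02 over all probes, and 11 of 13 were above 0, against 53.5% of all probes. Repeat arrays of the same pair of lines differed by a median of 0.04 for the member probes and by 0.24 at most, while the SD over the 4 pairs had a median of 0.29. Differences between line pairs were thus larger than those between arrays of 1 pair. With any 1 of the 4 pairs left out, 0 of all tested probes passed, and neither Tet1 nor Tet2 did. With each array centred on its median in place of loess, which leaves dye effects that depend on brightness, 10 of the 13 passed, where 38.6% of all probes did. The median of all probes was then 0.22, and relative to it the 13 probes lay 0.12 to 0.60 higher, with Lefty1 at 0.34 and the brightest Tdgf1 probe at 0.565 turned above 0.

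**Figure D1:**
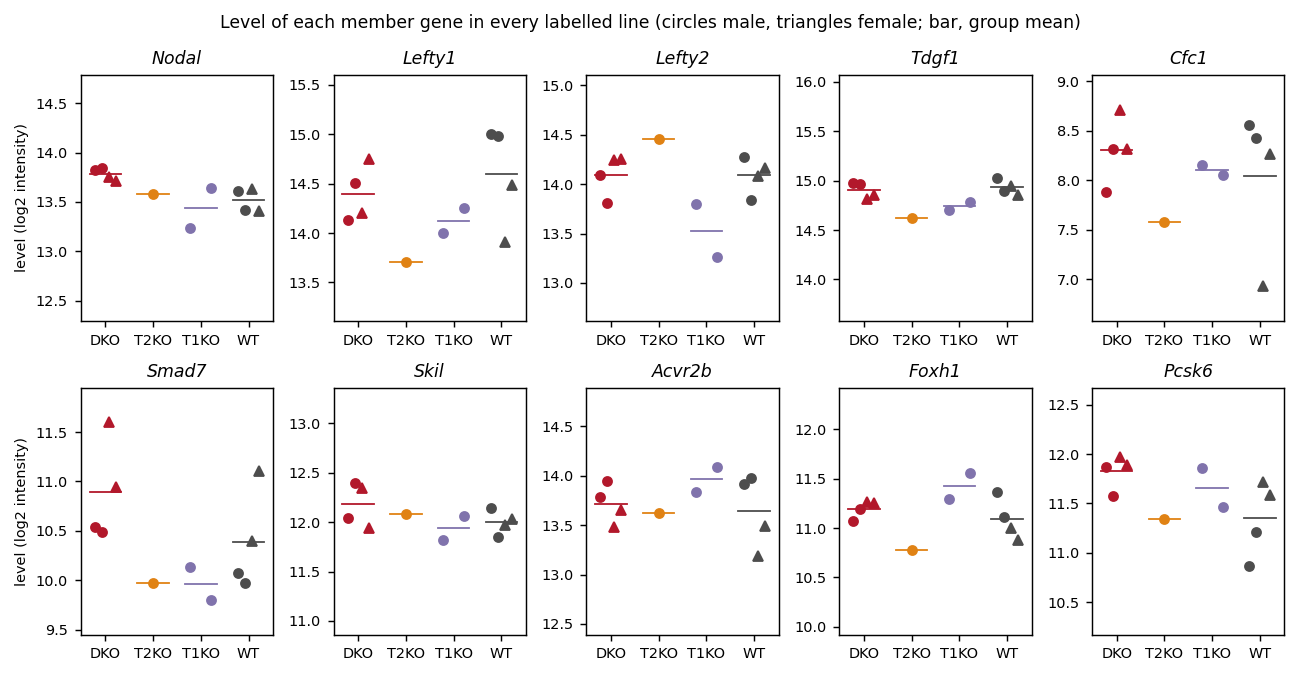
Normalised level (log2 intensity, vertical axes of equal span) of the brightest probe of each of the 10 genes in every labelled line, with DKO, T2KO, T1KO and WT from left to right, circles for male lines, triangles for female lines and a bar for the group mean. Nodal lies higher in all 4 DKO lines than in all 4 WT lines, and Lefty2 is highest in T2KO 16 and lowest in T1KO 65.

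Nodal, the ligand, was measured by a probe at chr10:60887790-60887849 (mm9). Its level was 13.82, 13.84, 13.75 and 13.71 in DKO lines 51, 61, 60 and 59, against 13.61, 13.42, 13.63 and 13.41 in WT lines 6, 92, 7 and 94, on the log2 scale. All 4 DKO lines were above all 4 WT lines, without overlap, which is also the case in either direction for 13.3% of all tested probes. The DKO over WT ratio was 0.21, 0.42, 0.12 and 0.30 in the pairs of DKO 51, 61, 60 and 59, with a mean of 0.26 ± 0.07 (SE, n = 4 pairs), or 1.20-fold. The ratio was above 0 in 4 of 4 pairs, where 36.9% of all probes had the same sign in every pair, and it did not pass the threshold (adjusted p = 0.107, limma, 95% interval 0.08 to 0.445). Nodal lies 1387 kb from Tet1 on chromosome 10. The T2KO level was 13.58, within the range of the WT lines, and the T1KO levels of 13.24 and 13.64 lay below and above it.

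Pcsk6, a convertase that cleaves Nodal precursors, was measured at chr7:73195141-73195200 (mm9). Its ratio was 1.00, 0.36, 0.25 and 0.30 in the pairs of DKO 51, 61, 60 and 59, with a mean of 0.48 ± 0.14 (SE, n = 4 pairs), or 1.39-fold. It was above 0 in 4 of 4 pairs, where 36.9% of all probes had the same sign in every pair. The adjusted p was 0.121 (limma), and the pair of DKO 51 and WT 6 stood apart. Without that pair the mean was 0.30 (adjusted p = 0.119, limma). The level was 11.87 in DKO 51, 11.57 in DKO 61, 11.97 in DKO 60 and 11.89 in DKO 59, against 10.87, 11.21, 11.72 and 11.59 in WT lines 6, 92, 7 and 94. The lowest DKO line lay below the highest WT line, so the groups overlapped, and the lowest level of all was that of WT 6. In the T1KO lines 99 and 65 it was 11.86 and 11.46, against 10.87 and 11.21 in the male WT lines, a difference of 0.62 ± 0.19 (SE) with an adjusted p of 0.302 (limma). T1KO and male WT lines shared the dye but lay on different slides, so slide and genotype cannot be told apart there.

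The co-receptors did not pass either. The 3 Tdgf1 probes lie between positions 110842722 and 110843158 of chromosome 9 (mm9). Their mean DKO over WT log2 ratios were -0.02, 0.175 and 0.07, in the order of their brightness. The probe at 0.175 was above 0 in 4 of 4 pairs, where 36.9% of all probes had the same sign in every pair. Over the 11 labelled lines, relative to the mean of each dye, the levels of the 3 probes correlated at r = -0.25 to 0.60. The probes of this gene thus did not follow 1 pattern. Tdgf1 has near-identical pseudogenes in the mouse genome. Whether these probes also measure them was not tested, so the Tdgf1 values are uncertain.

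Cfc1 (chr1:34601097-34601156, mm9) varied most between pairs, with ratios of -0.68, -0.11, 1.78 and 0.05 in the pairs of DKO 51, 61, 60 and 59 and an SD of 1.06. Its level was 6.93 in WT 7 and between 8.27 and 8.56 in the other WT lines, against 7.88 to 8.71 in the DKO lines. It was the dimmest member probe in every labelled line. The mean ratio was 0.26 ± 0.40 (SE, n = 4 pairs, adjusted p = 0.718, limma), and without the pair of DKO 60 and WT 7 it was -0.25. In that pair the median ratio of 24 feeder fibroblast markers was 0.84 and that of 7 primed epiblast markers was 1.25, and their part in the Cfc1 value was not tested. With the scanner software's processed values the mean Cfc1 ratio over all pairs was 0.51.

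**Figure D2:**
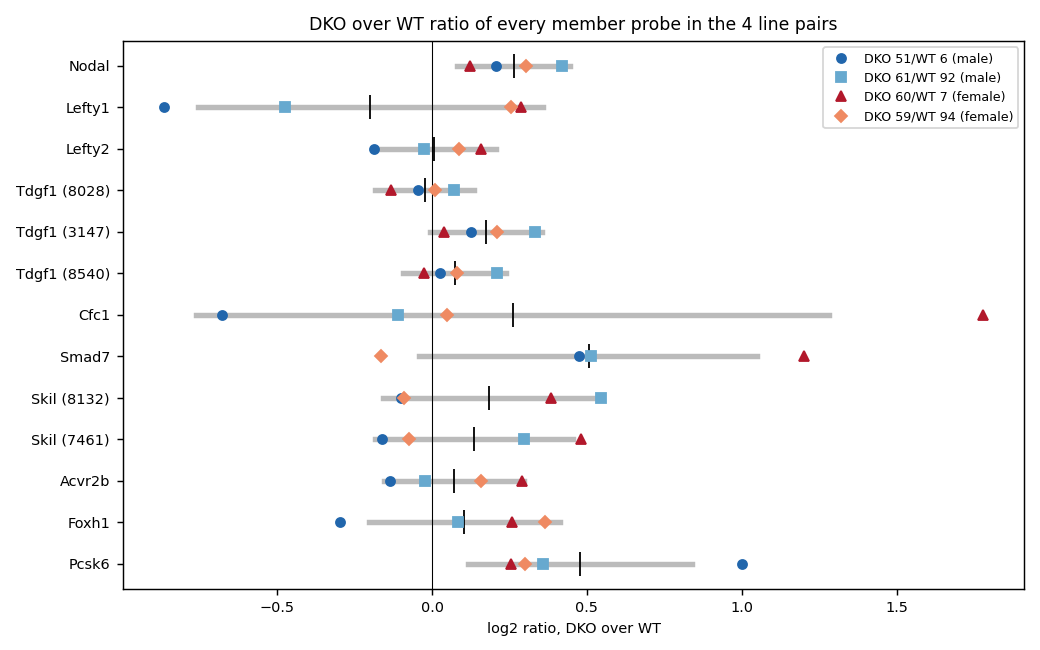
DKO over WT log2 ratio (horizontal axis) of each of the 13 member probes (rows, Tdgf1 and Skil probes marked by the end of their name) in the 4 line pairs (coloured symbols), with the mean (black tick) and its 95% interval (grey bar). Nodal, Pcsk6 and the Tdgf1 probe of middle brightness lie above 0 in all 4 pairs. Lefty1, Lefty2, Cfc1 and Acvr2b are below 0 in both male pairs and above 0 in both female pairs, some of them close to 0. The pair of DKO 60 and WT 7 stands out for Cfc1 and Smad7.

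Acvr2b, a type II activin receptor (chr9:119342560-119342619, mm9), had ratios of -0.14, -0.02, 0.29 and 0.16 in the pairs of DKO 51, 61, 60 and 59, 2 below and 2 above 0. The mean was 0.07 ± 0.09 (SE, n = 4 pairs, 95% interval -0.15 to 0.30). Foxh1, the DNA-binding partner of the SMADs (chr15:76498767-76498826, mm9), had ratios of -0.30, 0.08, 0.26 and 0.37 in the same order, with a mean of 0.10 ± 0.12. Neither passed the threshold (adjusted p = 0.646 for Acvr2b and 0.63 for Foxh1, limma). The 95% interval of the Foxh1 mean was -0.205 to 0.41.

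Lefty1, a feedback antagonist of Nodal, was measured at chr1:182868137-182868196 (mm9). Its DKO over WT ratio was -0.87 in the pair of DKO 51 and WT 6 and -0.475 in the pair of DKO 61 and WT 92, both male. The ratio was 0.29 in the pair of DKO 60 and WT 7 and 0.26 in that of DKO 59 and WT 94, both female. Lefty1 was thus lower in DKO in both male pairs and higher in DKO in both female pairs. The ratios of Lefty2, Cfc1 and Acvr2b had the same signs in these pairs. Some were close to 0, with Lefty2 at -0.03 and Acvr2b at -0.02 in the pair of DKO 61 and WT 92. Cfc1 was at 0.05 in that of DKO 59 and WT 94. The share of all probes with these signs was not counted. The Lefty1 level was 14.13 and 14.51 in male DKO lines 51 and 61, against 15.00 and 14.98 in male WT lines 6 and 92, and 14.20 and 14.75 in female DKO lines 60 and 59, against 13.91 and 14.49 in female WT lines 7 and 94. The male minus female difference was -0.94 ± 0.18 (SE), with an unadjusted p of 0.00487 and an adjusted p of 0.833 (limma). With any 1 pair left out it was -1.14 to -0.75. Here 1 of 13 member probes had an unadjusted p under 0.05 and 5.09% of all probes did, and 0% of all probes passed after adjustment. In that comparison 0 of 24 feeder fibroblast markers were above 0, with a median of -0.68, and 0 of 7 primed epiblast markers, with a median of -0.995, and their part in the Lefty1 value was not tested. Sex and slide coincide and cannot be told apart.

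Lefty2, its paralogue, lies 39.2 kb from Lefty1 on chromosome 1, with its probe at chr1:182828893-182828952 (mm9). In their best ungapped alignment the 2 probes match at 19 of 56 bases, so their sequences differ. Whether either probe also measures the transcript of the other gene was not tested. Its DKO over WT ratio was -0.19, -0.03, 0.16 and 0.09 in the pairs of DKO 51, 61, 60 and 59, with a mean of 0.01 ± 0.08 (SE, n = 4 pairs, 95% interval -0.19 to 0.205). In T2KO 16 over T1KO 65 it was 1.20 on both arrays, or 2.30-fold. T2KO 16 had 14.46, the highest of the 11 labelled lines, and T1KO 65 had 13.26, the lowest. The difference had an unadjusted p of 0.000564 and an adjusted p of 0.269 (limma), and rests on 1 pair of lines whose spread was taken from the DKO pairs.

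Smad7, an inhibitory SMAD, had ratios of 0.47, 0.51, 1.20 and -0.17 in the pairs of DKO 51, 61, 60 and 59, above 0 in 3 of 4. The mean was 0.505 ± 0.22 (SE, n = 4 pairs, adjusted p = 0.217, limma), the highest of the 13 probes. Without the pair of DKO 60 and WT 7 it was 0.27, and without that of DKO 59 and WT 94 it was 0.73. The value in the pair of DKO 60 and WT 7 stood beside the feeder and primed epiblast marker medians already given for that pair, and their part was not tested. Within each genotype the female lines had the higher levels, but sex and slide coincide there and cannot be told apart. In DKO they were 10.54 and 10.49 in male lines and 11.60 and 10.94 in female lines, and in WT they were 10.07 and 9.97 in male lines and 10.40 and 11.11 in female lines.

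Skil, a SMAD corepressor, had 2 probes on chromosome 3, at 31021203 to 31021262 and 31016390 to 31016449 (mm9). They followed each other over the 11 lines (r = 0.85, relative to the mean of each dye), and the 10 spots of the first had an SD of 0.03 to 0.12 per array. Their mean ratios were 0.185 ± 0.14 and 0.14 ± 0.13 (SE, n = 4 pairs), with adjusted p values of 0.433 and 0.537 (limma).

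T2KO over T1KO had 4 of 13 member probes with an unadjusted p under 0.05, 1 higher and 3 lower, against 12.7% of all probes, and 0 of 13 after adjustment, where 0% of all probes passed. The 3 lower ones were Lefty1 at -0.53, Acvr2b at -0.47 and Foxh1 at -0.78 (adjusted p = 0.362 for Lefty1, 0.327 for Acvr2b and 0.298 for Foxh1, limma). With each array centred on its median, Lefty1 turned to 0.06 and Acvr2b to 0.115. With normexp fitted on all spots, Foxh1 was at -0.23 (unadjusted p = 0.257, limma), and 1 of 13 member probes, that of Lefty2, kept an unadjusted p under 0.05, beside 763 of all probes in place of 3286. Foxh1 was at 10.78 in T2KO 16, the lowest of the 11 lines, and at 11.56 in T1KO 65, the highest. The same 2 lines differed in marker lists: the primed epiblast median was -1.36, the primitive endoderm median -0.69 with 0 of 11 above 0, and the ES cell median 0.57. Their part in these values was not tested.

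T1KO minus male WT had 3 of 13 member probes with an unadjusted p under 0.05, against 13.4% of all probes, and 0 of 13 after adjustment, where 0% of all probes passed. Lefty1 was lower by 0.87 ± 0.21 (SE), at 14.00 and 14.25 in T1KO 99 and 65, against 15.00 and 14.98 in WT 6 and 92 (adjusted p = 0.256, limma). Lefty2 was at 13.80 and 13.26 in T1KO 99 and 65, against 14.28 and 13.84 in WT 6 and 92, a difference of -0.535 (adjusted p = 0.387, limma). Beside Lefty1, the probes with an unadjusted p under 0.05 were that of Pcsk6 and 1 of Tdgf1, at 0.36, while that of Lefty2 was 0.0578. In the same comparison 10 of 11 primitive endoderm markers were above 0, with a median of 0.34 against -0.01 over all probes, and their part in these values was not tested. Male DKO minus T2KO had 3 of 13 with an unadjusted p under 0.05, against 12.8%, and 0 of 13 after adjustment, against 0.00387% of all probes. Those were Lefty2 at -0.50, 1 Tdgf1 probe at 0.36 and Foxh1 at 0.35. Lefty1, at 0.61, was not among them. There, 7 of 7 primed epiblast markers were above 0, with a median of 0.755, and 1 of 10 ES cell markers, with a median of -0.49, and their part was not tested. Male DKO and T2KO lines shared the dye but lay on different slides, so slide and genotype cannot be told apart there either. T1KO lines serve in 2 of these comparisons and male WT and DKO lines in others, so the comparisons share lines and slides.

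**Figure D3:**
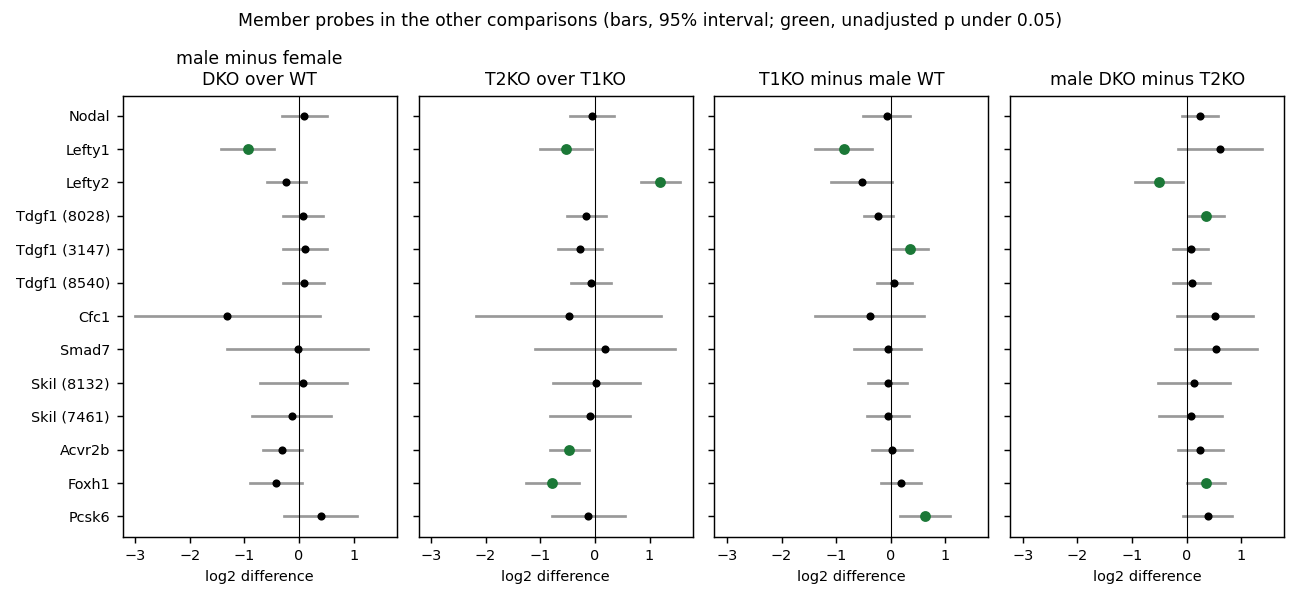
Log2 difference (horizontal axis, equal scale) and 95% interval of each of the 13 member probes in 4 further comparisons, 1 panel each, with green points where the unadjusted p was under 0.05. Lefty1 lies left of 0 in male minus female, T2KO over T1KO and T1KO minus male WT. It lies right of 0 in male DKO minus T2KO, at 0.61. Lefty2 lies right of 0 in T2KO over T1KO, at 1.20.

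Of 43 other genes of the Nodal and activin pathway, 39 were tested, and in DKO over WT 3 rose, 0 fell and 36 did not pass, with a median of 0.105 against 0.02 over all probes. Of all tested probes, 2.44% were called higher and 1.54% lower. Smad6, an inhibitory SMAD that mainly restrains BMP signalling, had ratios of 0.605, 0.39, 0.82 and 0.61 in the pairs of DKO 51, 61, 60 and 59, with a mean of 0.61 ± 0.09 (SE, n = 4 pairs, adjusted p = 0.0353, limma). Zfyve9, which presents SMAD2 and SMAD3 to the receptor, had 0.38, 0.30, 0.41 and 0.47, with a mean of 0.39 ± 0.06 (adjusted p = 0.0406, limma). Eomes, a T-box factor and SMAD target in the primitive streak, had 0.66, 0.81, 1.44 and 0.635, with a mean of 0.89 ± 0.15 (adjusted p = 0.0477, limma). All 3 were higher in DKO in 4 of 4 pairs, where 36.9% of all probes had the same sign in every pair. None of the 3 passed without any 1 of the pairs. 0 of the 39 passed in the other 4 comparisons.

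**Figure D4:**
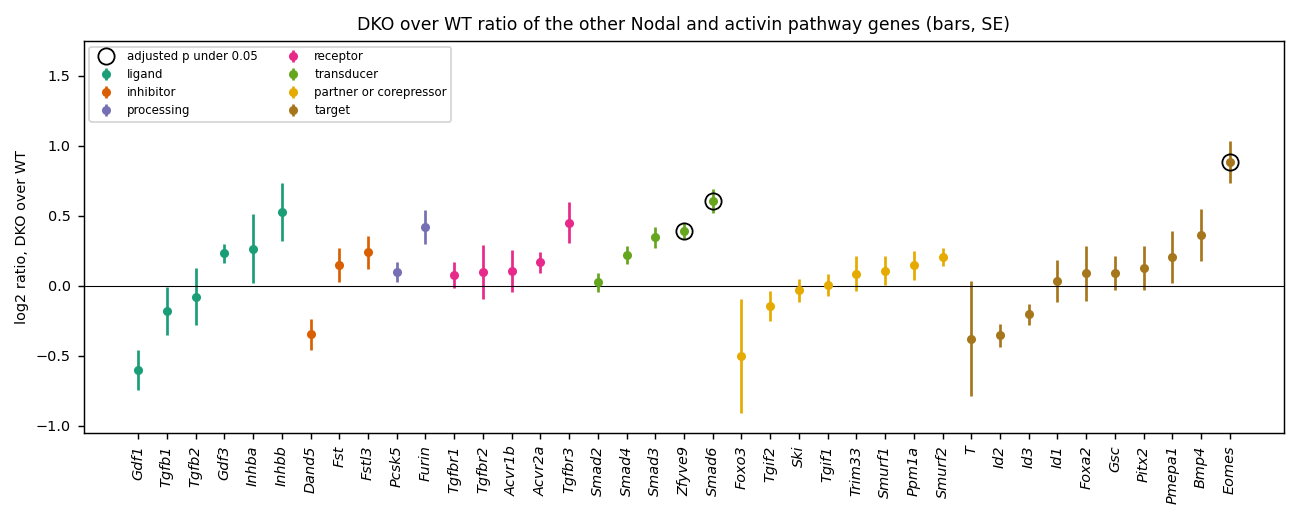
DKO over WT log2 ratio (vertical axis, bars show the SE) of the 39 other pathway genes tested, grouped by role along the horizontal axis, with black circles on those past an adjusted p of 0.05. Smad6, Zfyve9 and Eomes are circled.

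Markers of other cells were measured beside these results. The 24 feeder fibroblast markers were well above background in all groups. The log2 of their summed intensities was 16.69 to 17.21 in DKO lines, against 16.76 to 17.85 in WT lines. For the 7 primed epiblast markers this measure was 15.14 to 16.03 in DKO lines, against 14.77 to 16.40 in WT lines. In DKO over WT, 0 of 24 feeder markers rose and 1 fell, S100a6 at -0.66, named after its value was seen (adjusted p = 0.0352, limma), and 0 of 7 primed epiblast, 0 of 10 ES cell and 0 of 11 primitive endoderm markers passed. Of 6 tested primitive streak markers 1 rose, Eomes.

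By the level over 11 lines, each relative to the mean of its dye, the genes most like Nodal were Dcaf1, Dynlt1c, Cnot4, Serinc3 and Adgrl1 (r = 0.88 to 0.92). Those most like Lefty1 were Ube2v1, Lzts2, Zfp608, Gap43 and Thbs3 (r = 0.92 to 0.94), and those most like Lefty2 were Tubb3, H3c8, Ap5z1, Pop1 and Ipo11 (r = 0.92 to 0.95). These were picked as the highest of all named genes, and the lines share arrays. Among the members themselves the highest r was 0.71, between Lefty1 and Cfc1, and the lowest was -0.605, between Lefty2 and Acvr2b.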

How the data were processed

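Arrays were read with Agilent Feature Extraction 10.1.1.1, and the deposited mean and local background intensities are not normalized, per the file headers. The authors' deposited log10 ratios and processed intensities, corrected and dye-normalized by that software per the file headers, and the authors' deposited value table served as alternatives. The authors' deposited table holds log2 ratios, to judge by the scanner ratios of the same arrays (r = 0.924 to 0.972), in the direction Cy5 over Cy3. Its column medians were 0.00182 to 0.00751, and how it was normalized and centred is not given here. 31539 of its 31595 probes matched the scanner files, with 10 of the 13 member probes.

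From the intensities, background was corrected by normexp (offset 50), followed by loess within arrays and Aquantile between arrays, in limma 3.58.1 on R 4.3.3. Control spots had weight 0. Outlier spots (173 to 337 per array) and the 71 to 122 gene spots per array below their local background were left out, a choice made after values had been seen. A fit on all spots is an alternative. A probe was tested if the software marked it as well above background on every array of 1 or more of the 6 groups of genotype and sex. Repeat arrays of a pair were averaged, so replicate numbers of the arrays never counted as samples. Log2 ratios or levels were tested with limma (two-sided, Benjamini-Hochberg over 25851 probes at 0.05), on 4 pairs against 0 for DKO over WT and on group means otherwise. The single T2KO line is assumed to vary like the others. The fit of DKO over WT was also run on simulated ratios with independent noise, and the other comparisons were not simulated. Precision is limited by how few arrays and lines there are, and whether lines came from separate embryos is not stated. Of the 3 slides, 1 held the male DKO arrays, 1 the female DKO arrays and 1 the remainder. Probe positions are mm9, from the array design, without exon annotation. 26581 of 39429 probes were named through RefSeq. Plots used matplotlib 3.10.9.

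The members and lists were chosen with earlier results of these data known. Named genes were all members, Tet1 and Tet2, the pathway genes past the threshold and the 5 genes most like Nodal, Lefty1 and Lefty2. Alternatives covered background correction, normalization, filter, covariates and left-out pairs or lines.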

Additional observations from a re-analysis of the deposited data

Results flagged for a closer look

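The Pcsk6 ratio of the pair of DKO 51 and WT 6, at 1.00 on the log2 scale, lay far above those of the other 3 pairs, 0.25 to 0.36. It was 1 of 39 sets of 4 values examined, and chance alone sets apart about 5% of such sets. The Cy5 sample of the T1KO 99 arrays, which the submitters left out for a false genotype and which enters no comparison, had a Lefty2 level of 15.25, above the 13.26 to 14.46 of the 11 labelled lines. Its Pcsk6 level of 12.06 was also above their range of 10.87 to 11.97. Its levels of Foxh1 (10.47), Acvr2b (13.13) and the Skil probes (11.68 and 8.723) lay below all labelled lines. The lowest levels of those lines were 10.78 for Foxh1, 13.19 for Acvr2b, and 11.82 and 8.835 for Skil.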

How the results depend on the processing

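The number of probes past the threshold in DKO over WT was 1028, and it was 173 with normexp fitted on all spots, 536 in the authors' deposited value table, 9990 with median centring (shift of the median of all probes 0.20), 7 with sex as a covariate, 1722 with every array and the pair as a random effect, and 0 (lowest and highest) when a pair was left out. The member count of 0 became 10 with median centring. The pathway count of 3 became 0 with normexp on all spots, 1 with the scanner software's values, 19 with median centring, 0 with sex as a covariate, 5 with the random effect, 1 with unpaired channels and 0 to 0 without a pair. T1KO minus male WT had 5 probes with the scanner's values, against 0. Male DKO minus T2KO, with 1, had 0 with the scanner's values, 2 with a variance prior that follows intensity and 0 to 0 without a DKO line. Of 639 member values under alternatives, 574 kept direction and side of the threshold, 9 newly passed in the same direction and 56 changed sign (the brightest Tdgf1 probe also passed, with median centring), 25 of them on leaving out a line or pair. The cause was not tested. In DKO over WT, Lefty2 turned to -0.0136 with normexp on all spots, -0.0041 with the scanner's values and -0.00594 in the authors' deposited table. The brightest Tdgf1 probe turned to 0.134 with the scanner's values and 0.565 with median centring, and Lefty1 to 0.342 with median centring. In male minus female, Smad7 turned to 0.0341 (normexp on all spots) and 0.0719 (median centring). In T2KO over T1KO, normexp on all spots gave Nodal 0.0876, the dimmest Tdgf1 probe 0.177 and Pcsk6 0.0799. Median centring gave Nodal 0.507, Lefty1 0.0615, the Tdgf1 probes 0.516, 0.383 and 0.418, the dimmer Skil probe 0.192, Acvr2b 0.115 and Pcsk6 0.32. In T1KO minus male WT, normexp on all spots gave the dimmest Tdgf1 probe -0.00294, Smad7 0.0358 and Acvr2b -0.00584. Loess alone gave Nodal 0.0635, Smad7 0.0559 and Skil 0.0701 and 0.0449. Leaving the T1KO 99 arrays out of the normalization gave Nodal 0.121 and Skil 0.0637 and 0.0875. That setting also took the T1KO 99 line out of the comparison, so its sign changes cannot be assigned to the normalization. They are not among the 25 counted for leaving out a line or pair. In male DKO minus T2KO, the dimmest Tdgf1 probe turned to -0.0187 (normexp on all spots) and the middle one to -0.0383 (scanner's values). With a pair left out, DKO over WT ranged over -0.362 to 0.0221 for Lefty1, -0.043 to 0.0728 for Lefty2, -0.0562 to 0.0114 for the brightest Tdgf1 probe, -0.247 to 0.573 for Cfc1 and -0.000678 to 0.142 for Acvr2b. Male minus female ranged over -0.414 to 0.143 and -0.247 to 0.398 for Skil, -0.00676 to 0.207 for Nodal, -0.00392 to 0.179 for the dimmest Tdgf1 probe and -0.706 to 0.66 for Smad7. With a line left out, T1KO minus male WT ranged over -0.279 to 0.121 for Nodal, -0.205 to 0.0852 and -0.194 to 0.0881 for Skil, -0.106 to 0.142 for Acvr2b, -0.0795 to 0.203 for the dimmest Tdgf1 probe and -0.225 to 0.109 for Smad7, and male DKO minus T2KO over -0.0415 to 0.314 and -0.0186 to 0.164 for Skil. DKO over WT is itself tested within pairs of lines hybridised together. Beyond that, no paired analysis was possible because the replicate numbers count repeat arrays of 1 pair of lines. The member probes were well above background on all arrays, but normexp on all spots moved Foxh1 in T2KO over T1KO to -0.231 and Cfc1 to -0.0235.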
